A study of Homo sapiens with 6 samples.

Results

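The LINC-numbered transcripts are long noncoding RNAs that carry a running number in place of a functional name, and they were examined here together with NEAT1 and MALAT1, a pair of abundant nuclear noncoding RNAs. Members were the listed genes whose symbol begins with LINC and a digit and does not end in -AS or -DT, plus NEAT1 and MALAT1. H19 was looked for and is not among the genes listed in the files used here. This gave 70 members of 5187 listed genes, of which 68 were LINC-numbered. The libraries were made from Huh7, an established human hepatocellular carcinoma line, with 3 GABA-treated cultures (gamma-aminobutyric acid for 24 h, at a dose that the labels do not give) and 3 control cultures without GABA. All 6 libraries are from 1 cell line in the same serum-supplemented medium, and the labels name them as biological replicates 1 to 3 of each group. The series asks how GABA acts on gene activity in liver cancer that spreads.

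Intergenic noncoding RNAs are transcribed by RNA polymerase II, usually spliced and often kept in the nucleus, and they are as a class less abundant than messenger RNAs. NEAT1 is the scaffold of paraspeckles, nuclear bodies built with the proteins NONO and SFPQ. MALAT1, the adjacent gene, is enriched in nuclear speckles, where splicing factors gather. Its 3′ end is made by RNase P cleavage instead of ordinary polyadenylation, and RNase Z acts on the small RNA released. Most LINC-numbered genes have no settled function, and several have been described in tumour cells.

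Counts on the listed genes summed to between 7702666 and 8392945 per library, and these are sums over the list, not library depths. The list itself follows the comparison, since file order tracked the p-values of the 4981 tested genes (Spearman's rho 0.93) and genes without a difference are nearly missing from it. A call therefore carries little information here, since 98.7% of tested genes passed the threshold, and direction, size and abundance are the quantities described. Of 22 hepatocyte and hepatoma markers, 5 immune markers and 4 endothelial markers, 0 are listed, so the identity of the cells was not checked. Of 6 fibroblast markers, 2 are listed, with COL3A1 higher and PDGFRB lower. Control replicate 3 stood apart on the second principal component (9.31% of the variance) and had the highest mitochondrial share of counts.

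Promoter windows of 4 members are shown because these genes are the examples of abundance and of change to which the results return. MALAT1 and LINC00963 are abundant and fell with GABA, LINC00641 is scarcer and fell, and LINC00472 rose. The windows are from RefSeq on GRCh38.p14 and hold 250 bases before to 50 bases after the annotated start, 5′ to 3′, with CpG dinucleotides in capitals. MALAT1 is chr11:65497488-65497787 (plus strand), LINC00963 is chr9:129488410-129488709 (plus), LINC00641 is chr14:21206851-21207150 (minus) and LINC00472 is chr6:71420696-71420995 (minus).
MALAT1: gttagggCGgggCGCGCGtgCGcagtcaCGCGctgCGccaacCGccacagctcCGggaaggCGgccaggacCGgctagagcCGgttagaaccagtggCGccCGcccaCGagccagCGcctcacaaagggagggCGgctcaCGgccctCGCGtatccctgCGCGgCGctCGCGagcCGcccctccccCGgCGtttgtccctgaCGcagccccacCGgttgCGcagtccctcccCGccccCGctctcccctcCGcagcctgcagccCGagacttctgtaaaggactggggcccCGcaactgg
LINC00963: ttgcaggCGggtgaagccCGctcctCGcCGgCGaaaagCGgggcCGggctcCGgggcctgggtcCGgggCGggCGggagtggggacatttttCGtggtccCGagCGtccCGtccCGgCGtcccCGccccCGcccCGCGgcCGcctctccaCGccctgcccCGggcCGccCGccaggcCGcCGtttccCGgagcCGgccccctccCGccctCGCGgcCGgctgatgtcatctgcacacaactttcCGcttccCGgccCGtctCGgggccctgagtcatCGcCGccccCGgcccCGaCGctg
LINC00641: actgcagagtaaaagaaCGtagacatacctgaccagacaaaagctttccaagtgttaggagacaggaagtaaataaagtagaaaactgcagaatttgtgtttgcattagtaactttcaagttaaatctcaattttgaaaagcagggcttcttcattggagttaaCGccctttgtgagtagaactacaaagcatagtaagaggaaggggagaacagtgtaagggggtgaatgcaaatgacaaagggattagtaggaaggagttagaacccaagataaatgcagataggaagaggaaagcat
LINC00472: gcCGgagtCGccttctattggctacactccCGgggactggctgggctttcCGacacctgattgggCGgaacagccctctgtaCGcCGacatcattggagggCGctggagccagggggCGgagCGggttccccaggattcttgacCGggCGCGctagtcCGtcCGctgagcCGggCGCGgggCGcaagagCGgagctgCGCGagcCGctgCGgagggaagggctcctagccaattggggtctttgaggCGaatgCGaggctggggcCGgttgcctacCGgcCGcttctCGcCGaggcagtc
The MALAT1 window holds 37 CpG dinucleotides and has a GC content of 73.7%, and the LINC00963 window holds 43 at 78.0%. The LINC00641 window holds 2 at 39.0%, and the LINC00472 window holds 31 at 68.7%. The LINC00963 start in RefSeq lies 5209 bp from the start of the gene in GENCODE release 29, so it is 1 of its possible starts. RefSeq windows were matched by symbol or gene ID for 49 of the 70 members. The median was 24.5 CpG dinucleotides in 20 windows of members that rose and 5 in 19 windows of members that fell. For all called genes it was 27 in both directions. Among the members that fell, the median was 20 in 7 windows at a mean of 50 CPM or more and 2.5 in 12 windows under 50 CPM. Among those that rose it was 5 in 1 window and 25 in 19 windows. These bands were chosen after the values had been seen. MALAT1 and LINC00963 belong to the band of 50 CPM or more, and both windows lie above its median. All motifs were searched on both strands, and TGACGTCA and TGACNNNGC share the letters TGAC. CCAAT was found in 20 of the 49 windows (40.8%) and in 34.6% of all 34943 windows, and LINC00472 held 5 matches. TGACNNNGC, the core of the antioxidant response element, was found in 12 (24.5%) against 13.3% of all windows, and MALAT1 held 2 matches. TATAAA, the TATA box, was found in 8 (16.3%, all windows 11.6%), TGACGTCA, the cyclic AMP response element, in 1 (2.04%, all windows 1.84%) and TGATGNAA, a core of the amino acid response element, in 1 (2.04%, all windows 3.62%). CACGTG, the E-box, was found in 0 of the 49 and in 7.23% of all windows. These are counts of letters in a window of fixed length and not binding sites.

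The summed share of counts on the members was smaller in GABA-treated cells. This sum is mostly NEAT1, and 24 of the 57 tested members rose. They made up 0.800%, 0.710% and 0.752% of the counts on listed genes in the GABA libraries, against 1.02%, 1.14% and 1.00% in the control libraries. The groups did not overlap, as was so for 92.5% of all tested genes of this preselected list taken singly. The means were 0.754% ± 0.0453 with GABA and 1.06% ± 0.0752 in control (SD, n = 3 each). NEAT1 alone made up more than all other members together, with 0.515%, 0.434% and 0.460% with GABA and 0.668%, 0.788% and 0.619% in control. The 68 LINC-numbered members together made up 0.230%, 0.227% and 0.232% with GABA, against 0.275%, 0.277% and 0.312% in control, again without overlap. Mitochondrially encoded transcripts also had a lower share with GABA, at 6.66%, 7.04% and 6.74%, against 7.74%, 7.14% and 9.11% in control, without overlap between the groups. With mitochondrial counts left out of the total, the members made up 0.857%, 0.764% and 0.806% with GABA and 1.11%, 1.23% and 1.10% in control. These are shares of the listed genes only, and in bulk RNA a smaller number of cells that make a transcript and less transcript per cell cannot be told apart.

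NEAT1 (ENSG00000245532, chromosome 11, 65422774 to 65445540 on GRCh38, plus strand) was the most abundant member and fell with GABA. Its level was 5102, 4343 and 4560 CPM (counts scaled by TMM to a common total over the listed genes) in the GABA libraries and 6681, 7858 and 6316 CPM in the control libraries. Every GABA library was below every control library. The log2 fold change, GABA over control throughout, was -0.57 ± 0.09 (SE of the fit, adjusted p = 0.00024, edgeR quasi-likelihood test). NEAT1 ranked 16 by mean CPM among all listed genes. Its exons cover 22767 bp, and the counts do not separate its short and long isoforms.

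MALAT1 (ENSG00000251562, chromosome 11, 65497688 to 65506516, plus strand) starts 52147 bp after the end of NEAT1 on the same strand. It had 552, 493 and 588 CPM with GABA and 766, 771 and 756 CPM in control, and the groups did not overlap. The control libraries lay within a narrow range (SD 7.27 CPM) and the GABA libraries were more spread (SD 48.2 CPM). The log2 fold change was -0.49 ± 0.07 (edgeR adjusted p = 0.00016). The ratio of NEAT1 to MALAT1 counts was 9.24, 8.82 and 7.75 with GABA and 8.72, 10.2 and 8.35 in control, and these ranges overlapped. The adjacent RNAs thus fell by amounts whose ratio did not separate the groups.

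**Figure D1:**
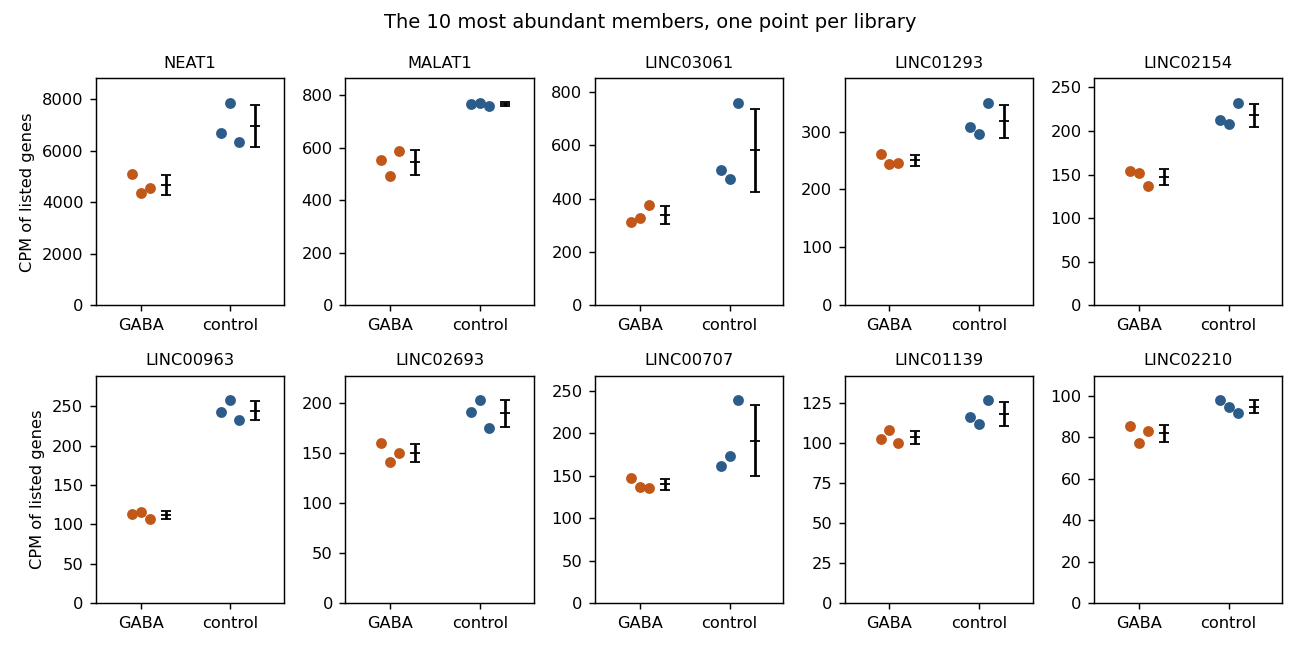
Levels (y axis, CPM of the listed genes) of the 10 members with the highest mean, 1 point per library, GABA left and control right in each panel, with the mean and SD of 3 libraries as bars. In all 10 panels the GABA libraries lie below the control libraries. Control replicate 3 is the highest point for LINC03061, LINC01293, LINC02154, LINC00707 and LINC01139.

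The remaining 8 of the 10 most abundant members were also lower with GABA, all without overlap between the groups. LINC03061 (chromosome 13) had 311, 327 and 376 CPM with GABA and 507, 475 and 760 CPM in control, where replicate 3 was the highest. Its log2 fold change was -0.78 ± 0.14 (edgeR adjusted p = 0.00079), and its transcript matches ERVH-1 and SLC44A3-AS1 closely enough that reads may be shared, so its level is uncertain. LINC01293 (chromosome 2) had 260, 245 and 245 CPM with GABA and 308, 295 and 350 CPM in control (-0.35 ± 0.07). LINC02154 (chromosome X) had 154, 152 and 137 CPM with GABA and 213, 208 and 232 CPM in control (-0.56 ± 0.07, edgeR adjusted p = 9.5e-05).

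LINC00963 (ENSG00000204054, chromosome 9, 129483451 to 129513686, plus strand), a transcript described in tumour cells, had the largest fall among the abundant members. It had 114, 116 and 106 CPM with GABA and 243, 258 and 233 CPM in control, so the highest GABA library was below the lowest control library by a wide gap. The log2 fold change was -1.13 ± 0.07 (edgeR adjusted p = 9.6e-07), the smallest p among the members that fell. LINC02693, annotated as the protein-coding gene C17orf51 in GENCODE release 29, had 159, 141 and 149 CPM with GABA and 191, 202 and 175 CPM in control (-0.34 ± 0.08). LINC00707 had 147, 137 and 135 CPM with GABA and 162, 173 and 239 CPM in control. Its log2 fold change of -0.45 ± 0.12 was -0.27 without control replicate 3.

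LINC01139, also known as LINK-A, had 102, 108 and 99.7 CPM with GABA and 116, 112 and 126 CPM in control. The log2 fold change was -0.19 ± 0.08 (edgeR adjusted p = 0.033), the smallest among the members, and with the replicate number as a block the adjusted p was 0.051. Without GABA replicate 1, 2 or 3 or control replicate 1 it was 0.096, 0.051, 0.12 or 0.059, so this call does not hold without any of these libraries. LINC02210, a transcribed pseudogene that overlaps the LINC02210-CRHR1 readthrough gene, had 85.3, 77.4 and 83.0 CPM with GABA and 97.8, 94.8 and 91.7 CPM in control (-0.21 ± 0.08). Its edgeR adjusted p was 0.11 without GABA replicate 2, 0.060 without GABA replicate 3 and 0.081 without control replicate 1. Per kilobase of annotated exon, NEAT1 was at 205 CPM with GABA and 305 CPM in control. LINC01293, with 1266 bp of exon, was at 197 CPM per kilobase with GABA and 251 in control. MALAT1 was at 61.7 CPM per kilobase with GABA and 86.6 in control. Per length, LINC01293 therefore ranked above MALAT1 in these counts in both groups. How RNA was selected is not given, so how fully MALAT1 was captured is not known.

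Of the 70 members, 57 passed the filter on low counts, and all 57 were called, beside 98.7% of all tested genes. With GABA 24 were higher and 33 lower, beside 47.6% and 51.2% of all tested genes. The median log2 fold change was -0.34 for the members and -0.18 for all tested genes, and the values ran between -2.94 and 1.95. Of the 57, 21 (36.8%) lay at an absolute log2 fold change of 1 or more, against 10.3% of all tested genes. Among the other long noncoding genes the share was 39.1%. The median level was 10.1 CPM for the members and 73.3 CPM for all listed genes. Under 10 CPM, 72.7% of the 22 tested members lay at an absolute log2 fold change of 1 or more, against 58.6% of all 676 tested genes. Between 10 and 50 CPM it was 21.1% of 19 members against 7.53% of 1235 genes, and at 50 CPM or more 6.25% of 16 members (1 member) against 0.847% of 3070 genes. For the other long noncoding genes it was 63.0% of 189 under 10 CPM, 10.7% of 103 between 10 and 50 CPM and 6.25% of 48 at 50 CPM or more. These differences were not tested. The groups did not overlap for 56 of the 57 members, beside 92.5% of all tested genes. The exception, named after its values were seen, was LINC02604, with 39.4, 54.5 and 51.9 CPM with GABA and 29.7, 32.9 and 48.3 CPM in control (0.40 ± 0.17), and its edgeR adjusted p lay between 0.11 and 0.18 without GABA replicate 2 or 3 or control replicate 1 or 2.

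Direction differed with abundance. The bands used here, divided at a mean of 10 and 50 CPM over the 6 libraries, were chosen after the values had been seen and were not tested. Of the 16 members at 50 CPM or more, 2 were higher with GABA and 14 lower, with a median log2 fold change of -0.40. Of all 3070 tested genes in that band, 1424 were higher and 1588 lower (median -0.18). The 48 other long noncoding genes in that band, with 11 higher and 35 lower, leaned the same way. Between 10 and 50 CPM, 10 members were higher and 9 lower, beside 580 higher and 650 lower of all tested genes. Under 10 CPM 12 members were higher and 10 lower, beside 365 higher and 311 lower of all tested genes. The other long noncoding genes had 59 higher and 43 lower between 10 and 50 CPM, and 110 higher and 79 lower under 10 CPM. The abundant exceptions, named after their values were seen, were LINC01615, with 65.8, 68.9 and 62.2 CPM with GABA and 54.3, 54.5 and 49.5 CPM in control (0.31 ± 0.09), and LINC00174, with 81.7, 82.4 and 88.7 CPM with GABA and 64.7, 64.7 and 78.7 CPM in control (0.28 ± 0.10). Without GABA replicate 3 or control replicate 1 the edgeR adjusted p of LINC00174 was 0.071.

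**Figure D2:**
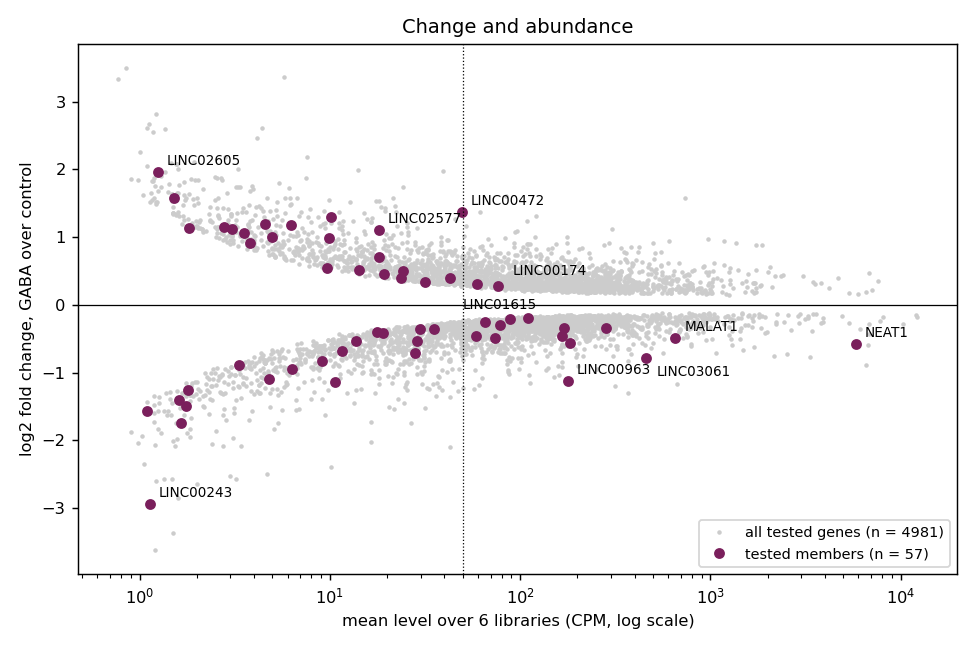
Log2 fold change, GABA over control (y axis), against the mean level over 6 libraries (x axis, CPM, log scale) for the 57 tested members and all 4981 tested genes, with the dotted line at 50 CPM. Right of the line 14 of 16 members lie below 0, and no tested gene has an absolute log2 fold change below 0.12.

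Among the members that rose, LINC00472 (ENSG00000233237, chromosome 6, 71344344 to 71420769, minus strand) had the smallest p. This transcript, described as growth-restraining in breast cancer cells, had 69.5, 71.1 and 73.2 CPM with GABA and 29.6, 25.6 and 27.3 CPM in control. Both groups were tight and far apart, and the log2 fold change was 1.37 ± 0.10 (edgeR adjusted p = 1.9e-06). LINC02577 (chromosome 7) had 22.0, 26.9 and 25.3 CPM with GABA and 12.0, 10.6 and 11.8 CPM in control (1.10 ± 0.14, edgeR adjusted p = 7.7e-05). LINC00705 (chromosome 10) had 13.5, 14.0 and 12.2 CPM with GABA and 7.53, 6.47 and 5.98 CPM in control (0.98 ± 0.18). Of its exon bases 12.6% overlap MANCR on the other strand.

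The other large rises were of scarcer members. LINC01816 had 16.4, 15.1 and 12.0 CPM with GABA and 7.77, 6.35 and 3.56 CPM in control (1.29 ± 0.25). LINC00632, the host locus of the circular RNA CDR1as, had 5.91, 9.30 and 11.0 CPM with GABA and 4.86, 4.14 and 2.54 CPM in control (1.18 ± 0.29). Gene counts do not separate the linear transcript from the circle. LINC00886 had 6.42, 6.85 and 5.78 CPM with GABA and 2.55, 2.46 and 3.31 CPM in control (1.19 ± 0.23). LINC03014 had 19, 14 and 22 counts with GABA and 5, 3 and 10 counts in control (1.58 ± 0.42). LINC02605 had 17, 12 and 19 counts with GABA and 3, 1 and 8 counts in control, and its log2 fold change of 1.95 ± 0.51, the highest of the members, was 2.92 without control replicate 3. For both of these, groups stayed apart but each library rests on few reads.

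The largest falls were likewise of scarce members. LINC00243 had 0, 0 and 6 counts with GABA and 12, 18 and 18 counts in control. Its log2 fold change of -2.94 ± 0.70 (edgeR adjusted p = 0.0031) rests on GABA replicate 3, without which all GABA libraries are at 0 and the fitted value of -7.00 depends on the prior count. LINC02725 had 9, 4 and 5 counts with GABA and 22, 16 and 23 in control (-1.75 ± 0.38). LINC02870 had 6, 4 and 3 counts with GABA and 13, 12 and 14 in control (-1.57 ± 0.42). LINC02861, LINC01119 and LINC01807 followed at -1.49 ± 0.39, -1.41 ± 0.35 and -1.26 ± 0.39, and the edgeR adjusted p of LINC01807 was 0.0502 without GABA replicate 3. LINC00641, named after its values were seen, fell at a higher level, with 6.17, 6.72 and 7.08 CPM with GABA and 12.6, 13.2 and 18.4 CPM in control (-1.14 ± 0.20).

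**Figure D3:**
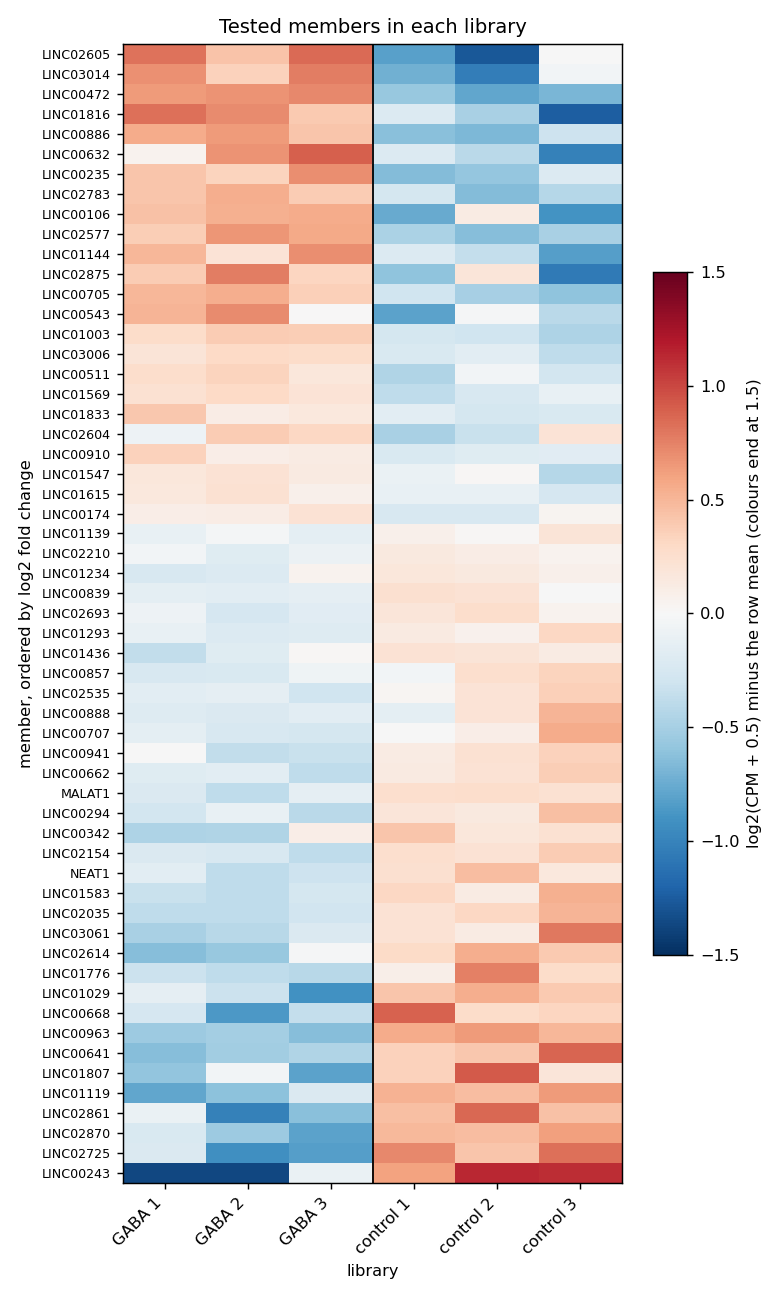
Each tested member (rows, ordered by log2 fold change) in each library (columns, GABA left of control), coloured by log2(CPM + 0.5) minus the mean of its row. The 24 members in the upper block are higher in the GABA libraries and the 33 below are lower, and the 3 libraries of a group differ most among themselves at the top and bottom, where counts are low.

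Of 35 LINC-numbered genes listed for a described role, mostly in tumour cells, 9 are members and were tested, and 2 were higher and 7 lower with GABA. The higher ones were LINC00886, given above, and LINC00511. LINC00511 averaged 16.8 ± 0.944 CPM with GABA and 11.7 ± 1.78 CPM in control (0.52 ± 0.16, edgeR adjusted p = 0.0094). The lower ones were LINC00963 and LINC00707, given above, with LINC00662, LINC01234, LINC00839, LINC00888 and LINC00342. LINC00662 averaged 61.3 ± 5.14 CPM with GABA and 85.8 ± 7.32 CPM in control (-0.49 ± 0.10, edgeR adjusted p = 0.0013). LINC01234 averaged 59.3 ± 6.61 CPM with GABA and 71.0 ± 2.52 CPM in control (-0.26 ± 0.10), with an edgeR adjusted p of 0.11 without GABA replicate 1, 0.097 without GABA replicate 2 and 0.074 without control replicate 1. LINC00839 averaged 70.4 ± 0.392 CPM with GABA and 86.7 ± 7.79 CPM in control (-0.30 ± 0.09). LINC00888 averaged 16.4 CPM with GABA and 21.9 CPM in control (-0.41 ± 0.17), and without control replicate 3 the value was -0.23 with an edgeR adjusted p of 0.15. Without GABA replicate 1, 2 or 3 the adjusted p of LINC00888 was 0.076, 0.076 or 0.066. LINC00342, which has near-copies, averaged 11.1 ± 2.74 CPM with GABA and 16.2 ± 1.55 CPM in control (-0.54 ± 0.18), with an edgeR adjusted p between 0.058 and 0.068 without GABA replicate 1 or 2 or control replicate 1. SDs are over 3 libraries.

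The 13 members left out by the filter had at most 23 counts in any library. Their mean was higher with GABA for 8 and lower for 5. LINC00571 had 0 counts in the GABA libraries and 19 in control, 6.31-fold lower with GABA against a floor of 3 counts over the group. LINC02138 had 0 with GABA and 13 in control, 4.31-fold lower against that floor. LINC01173 and LINC02995 each had 9 counts with GABA and 0 in control, 3.01-fold higher against it. The floor allows for counting error in the group at 0 only. Counting error in the other group and the spread between cultures are not covered, so the true differences may be smaller.

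Base composition was read for the members that rose and those that fell. The longest annotated transcript had a median GC content of 53.3% for the 24 members that rose (36.0% to 70.8%) and 44.1% for the 33 that fell (35.9% to 65.3%). A GC content of 50% or more was found in 16 of the 24 that rose (66.7%) and 4 of the 33 that fell (12.1%), against 59.8% of all genes called higher and 32.2% of all called lower. All listed genes had the same ordering, with medians of 52.4% for the 2369 called higher and 45.2% for the 2549 called lower. The part of base composition in any member's value was not tested. Of 9 tested members with 1 exon, 7 were higher and 2 lower, and of the 48 with more exons, 17 were higher and 31 lower. Of all listed genes with 1 exon, 111 were called higher and 135 lower, and with more exons 2258 higher and 2414 lower. These splits were made after the values had been seen.

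**Figure D4:**
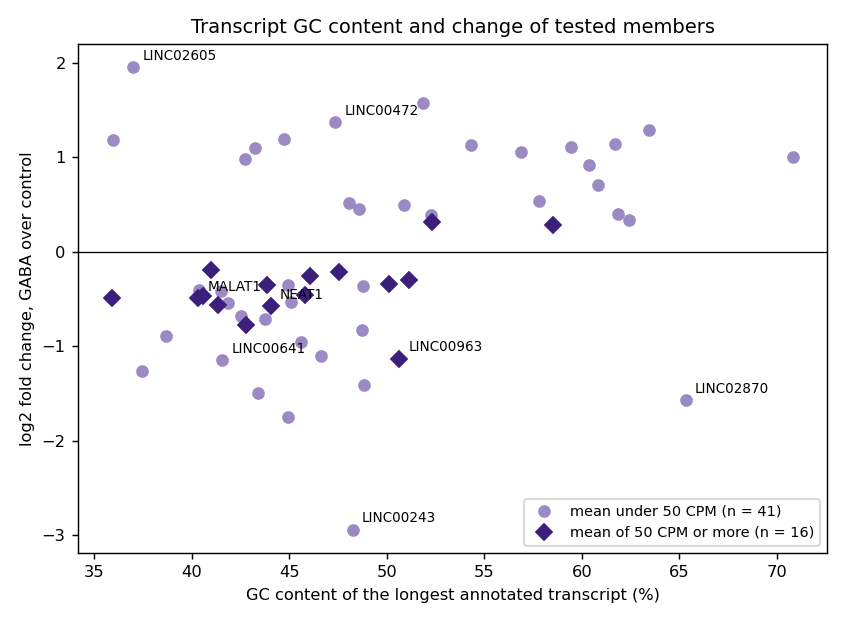
Log2 fold change, GABA over control (y axis), against the GC content of the longest annotated transcript (x axis, percent) for the 57 tested members, with diamonds for a mean of 50 CPM or more. Members below 0 lie mostly under 50% GC, with LINC02870 at 65.3% as the exception at the right, and members above 0 spread up to 70.8%.

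Neighbouring genes were read for each member. The nearest protein-coding gene lay at a median of 19767 bp, overlapped the gene body for 6 members and was itself listed for 24 of 70. Of the called members, 29 had a called gene that is no member within 100 kb, and 13 of these moved in the same direction as the nearest one (44.8%). Among the other called genes the count was 1968 of 3252 (60.5%). Of the 15 higher members with such a neighbour, 7 had a neighbour that was higher, and of the 14 lower members, 6 had a neighbour that was lower. This difference was not tested.

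The closest match in size was LINC02577 with PIK3CG, the catalytic subunit of PI3K gamma, 26798 bp away on the same strand. PIK3CG averaged 32.3 ± 2.38 CPM with GABA and 15.4 ± 1.32 CPM in control, a log2 fold change of 1.07 ± 0.13 beside 1.10 for LINC02577. LINC02605 went against IL7, a lymphocyte growth factor gene 32006 bp away and head to head, which was at 5.01 ± 0.779 CPM with GABA and 9.02 ± 2.43 CPM in control (-0.85 ± 0.24). LINC03014 went against FAM20C, a secretory pathway kinase gene, at 10.5 ± 1.57 CPM with GABA and 17.8 ± 3.23 CPM in control (-0.75 ± 0.18).

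Of the 16 members at 50 CPM or more, 6 had a called neighbour that is no member within 100 kb. Of these, 2 moved in the same direction as it. LINC00941 (-0.47) lies 40507 bp from CAPRIN2 (-0.34 ± 0.08), which was also lower, and LINC01615 (0.31) lies 52856 bp from THBS2 (0.58 ± 0.22), which was also higher. In the other 4 pairs the member was lower and the neighbour higher. The nearest coding gene of NEAT1, FRMD8 at 9249 bp, is not among the listed genes. The nearest called gene of NEAT1 was SLC25A45, a mitochondrial carrier gene 39073 bp away, at 42.6 ± 4.86 CPM with GABA and 25.6 ± 5.69 CPM in control (0.73 ± 0.15). For MALAT1, the nearest called gene that is no member was ZNRD2, 63914 bp away (0.43 ± 0.13). The exons of ZNRD2 overlap FAM89B, so its counts are uncertain. NEAT1, itself a member, lies closer to MALAT1 at 52147 bp and was also lower. LINC01293 lies 46899 bp from HK2, the hexokinase of many tumours, which averaged 586 ± 19.6 CPM with GABA and 443 ± 32.5 CPM in control (0.40 ± 0.07). LINC01234 (-0.26) lies 43055 bp from RBM19 (0.32 ± 0.08).

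**Figure D5:**
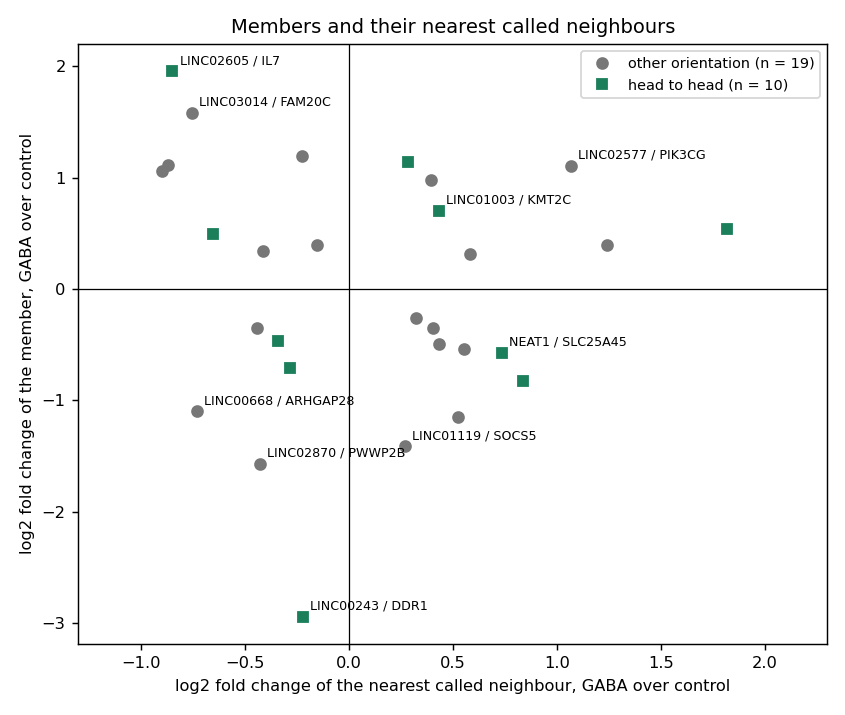
Log2 fold change of 29 called members (y axis) against that of their nearest called neighbour within 100 kb (x axis), both GABA over control. Neighbours that are members were left out, and squares mark head-to-head pairs. The points fall in all 4 quadrants, with 13 of 29 in the 2 where the signs match, and LINC02577 with PIK3CG near equal values.

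Other RNAs and proteins of the same compartments were read from lists. Of 50 other named long noncoding RNAs, 19 are listed and tested, with 3 higher and 16 lower with GABA and a median log2 fold change of -0.45. All long noncoding genes outside the members leaned the other way, with 180 called higher and 157 lower (median 0.39). Those at 50 CPM or more had 11 higher and 35 lower (median -0.32). MIR22HG, the host gene of miR-22, averaged 73.3 ± 5.12 CPM with GABA and 150 ± 11.9 CPM in control (-1.04 ± 0.09). GAS5, a snoRNA host, averaged 1057 ± 20.2 CPM with GABA and 1440 ± 47.5 CPM in control (-0.45 ± 0.06). HULC, a noncoding RNA of liver cancer, was among the 3 that were higher, at 22.2 ± 1.65 CPM with GABA and 14.0 ± 1.44 CPM in control (0.66 ± 0.14).

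Of 38 nuclear speckle and paraspeckle proteins, 20 are tested, with 15 higher and 5 lower (median 0.21, all tested genes -0.18). The 5 lower genes were SRSF5 (-0.60 ± 0.07), RBM12 (-0.52 ± 0.08), SRSF3 (-0.48 ± 0.08), TARDBP (-0.26 ± 0.07) and SRSF11 (-0.25 ± 0.08). The examples of higher genes were chosen after their values were seen. NONO averaged 1405 ± 27.6 CPM with GABA and 1136 ± 45.6 CPM in control (0.31 ± 0.06), and SFPQ averaged 656 ± 10.5 CPM with GABA and 562 ± 23.6 CPM in control (0.22 ± 0.06). RBM14, a paraspeckle protein gene, averaged 174 ± 4.16 CPM with GABA and 69.8 ± 6.94 CPM in control (1.32 ± 0.09), and its exons overlap a readthrough gene, so its counts are uncertain.

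Of 52 nuclear RNA processing and decay genes, 21 are tested, with 12 higher, 8 lower and 1 that did not pass. The 8 lower genes were PRORP, EXOSC6, DGCR8, EXOSC8, INTS6, ZFC3H1, METTL3 and DICER1, between -0.76 and -0.26. ELAC2, the RNase Z that acts on the small RNA released from MALAT1, averaged 326 ± 14.2 CPM with GABA and 254 ± 14.0 CPM in control (0.36 ± 0.07). Of 12 genes around H19 and IGF2, 3 are tested, with CTCF and MRPL23 higher and IGF2BP3 lower.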

How the data were processed

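RNA was sequenced from 6 libraries of Huh7 cells, 3 with GABA and 3 control, and the groups come from the titles in the labels. The authors deposited integer read counts per gene for each library. CASAVA 1.8, Bowtie 0.12.2 and the hg38 build are named in the submitters' processing notes, and the counting program, annotation, strand setting and RNA selection are not given in the sources used here. Without strand, reads of overlapping genes cannot be told apart, and 27 members share exon bases with another gene. Gene IDs were matched to symbols with a name table (4904 genes) and to positions, exons and names (283 genes) with GENCODE release 29. Of the members, 16 have another symbol there, and 3 genes with a LINC number there carry new names and are not members. Near-copies were found for 5 members, in most cases with BLAST 2.17.0.

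Counts were tested with edgeR 4.0.16 in R 4.3.3 over all listed genes (filterByExpr, TMM, robust quasi-likelihood fit, 2-sided, Benjamini-Hochberg adjustment, threshold 0.05). Adjusted p-values describe a preselected list. The members and lists were chosen with earlier results of these data known. Members were named for abundance (10), size of rise and fall (6 each), smallest p (3 in each direction) and known roles. The replicate numbers did not pair the libraries. No library was left out. Alternatives were DESeq2 1.42.0, limma-voom 3.58.1, other scalings and filters, a replicate block, each library left out, and members without exon overlap, near-copies or NEAT1, and a total without mitochondrial counts, the last 3 added after the data were seen. Scripts were tested on simulated data.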

Additional observations from a re-analysis of the deposited data

How the results depend on the processing

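Across 14 alternative settings, 796 values of single members were computed. Of these 0 changed sign, 44 were not past the threshold, and the 15 members concerned each lost the call in a setting without 1 library. LINC01139, LINC02210, LINC01234 and LINC00888 also lost it with every library kept. Their DESeq2 adjusted p was 0.12, 0.091, 0.067 and 0.061. With DESeq2 size factors the edgeR adjusted p was 0.091, 0.064, 0.055 and 0.054. The 57 called members were 53 with DESeq2 (24 higher, 29 lower), 56 with the replicate block (24 higher, 32 lower) and 50 to 58 without 1 library (22 to 25 higher, 28 to 33 lower). Of all 4981 tested genes, 4918 were called in the main fit, 4324 with DESeq2 and 4823 with the replicate block. Without 1 library 4025 to 4735 of 5013 to 5024 were called. Of all called genes, 48.2% were higher in the main fit and 54.8% with DESeq2, so this background depends on the method. Members without exon overlap gave 33 called, 13 higher and 20 lower, and a minimum absolute log2 fold change of 1 gave 21. The median log2 fold change of -0.34 was -0.28 with no filter on low counts, when 13 more members entered, and between -0.34 and -0.26 without 1 library. The 13 of 29 members in the same direction as their neighbour were 7 of 17 without exon overlap, 4 of 10 within 20 kb, 25 of 49 within 500 kb and 8 to 11 of 21 to 27 without 1 library. The member share of counts was 0.137% with GABA and 0.188% in control without members of exon overlap, and 0.284% with GABA and 0.364% in control without NEAT1, and 0.809% with GABA and 1.15% in control over the total without mitochondrial counts. The cause of these shifts was not tested beyond the fewer or additional members that each setting brings. Besides the members named above, LINC01436, LINC00857, LINC00910, LINC02535, LINC00543, LINC01776 and LINC01547 lost the call without 1 library, with adjusted p between 0.055 and 0.073. Without control replicate 3, LINC01547 had a log2 fold change of 0.22 (edgeR adjusted p = 0.070) and LINC02604 one of 0.63, and without control replicate 1 LINC02604 had one of 0.26 (edgeR adjusted p = 0.18). Low counts limit the members under 10 CPM.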
